A study of Mus musculus with 29 samples.

Results

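Glucocorticoids are the steroid hormones of the adrenal stress response, with corticosterone as the main one in mice. The hormone binds a receptor that chaperones hold ready in the cytoplasm, and the bound receptor then moves to the nucleus and raises or lowers the transcription of its target genes. In the brain this system restrains inflammation, changes the metabolism of glia and follows the time of day. The 10 genes described here were chosen by name as parts and targets of this system, out of 25746 Ensembl genes counted in each sample, and all 10 were among the 17031 genes that passed the filter on low counts. Nr3c1 encodes the glucocorticoid receptor, Nr3c2 the mineralocorticoid receptor, which also binds corticosterone, and Hsd11b1 the enzyme that regenerates active hormone from its inactive form. Fkbp5 encodes a co-chaperone that lowers hormone binding by the receptor and so closes a feedback loop inside the cell. Tsc22d3 encodes the anti-inflammatory leucine zipper protein GILZ, Sgk1 a kinase that regulates ion channels and transporters, Per1 a repressor of the circadian clock, Zbtb16 a zinc finger transcription factor, Plin4 a coat protein of lipid droplets and Cdkn1a the cell cycle inhibitor p21, which is also a target of p53.

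RNA was sequenced from brain tissue of 29 mice aged 3 months in 8 groups, to ask how the absence or suppression of lymphocytes changes the cortex after stroke. A photothrombotic stroke, in which light activates an injected dye and clots the cortical vessels, was made in 18 mice, and their tissue was taken 21 days post injury (dpi). The stroked groups were untreated WT (n = 4), WT given tacrolimus from day 0 (WT-Tacr acute, n = 3), WT given tacrolimus from day 7 (WT-Tacr delayed, n = 5), Rag2-/- (n = 3) and NSG (n = 3) mice. The non-stroked groups were WT (n = 4), Rag2-/- (n = 3) and NSG (n = 4) mice. Tacrolimus is a calcineurin inhibitor that blocks T cell activation, and it acts by binding proteins of the FKBP family, to which the product of Fkbp5 belongs. Rag2-/- mice cannot assemble antigen receptor genes and so lack T and B cells, whereas NSG mice combine the NOD background with changes in Prkdc and Il2rg and lack NK cells as well, so that strain background and immune defect cannot be told apart in them. Tacrolimus without stroke is not analysed here, and the same 4 non-stroked WT mice were the reference for all 3 stroked WT groups. The methods describe the control tissue as contralesional, the results as coming from naïve animals, and it is called non-stroked here. In tissue RNA, fewer cells of a type and less RNA per cell cannot be told apart.

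Total counts ran from 17789044 to 43403413 per mouse. By their titles the mice belong to 2 cohorts, Imm2 with 20 mice and TF with 9 mice, and the median total was 37223696 in Imm2 and 23155303 in TF. All non-stroked, Rag2-/- and NSG mice and 2 stroked WT mice and 1 acute tacrolimus mouse are Imm2, whereas 2 stroked WT, 2 acute and all 5 delayed mice are TF. The Y-linked gene Ddx3y had 1225 to 1936 counts in 15 Imm2 mice and at most 2 counts in the other 5, and it had 0 counts in all 9 TF mice. The paper states that both sexes were used. Cohort is therefore partly confounded with stroke, with tacrolimus and with the sex that Ddx3y marks. Delayed tacrolimus mice and non-stroked WT mice have no cohort in common. Values within 1 cohort, or with cohort as a covariate, are given beside the results they touch. The files of 2 mice, both acute tacrolimus, carry an animal number other than their title. Summed neuronal markers were between 6649 and 13410 CPM in every mouse. CPM is the read count of a gene divided by the TMM-scaled library size in megareads. Tests are edgeR quasi-likelihood tests with Benjamini-Hochberg adjustment over all 17031 genes, a difference is called at an adjusted p below 0.05, and p-values measure the spread between these samples.

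Per kilobase of exon, Per1 was the most abundant of the 10 transcripts in non-stroked WT cortex, at 30.0 ± 4.19 CPM per kb (SD, n = 4), and Plin4 the least, at 0.382 ± 0.212 CPM per kb. Zbtb16 (16.6 ± 3.83 CPM per kb) and Nr3c1 (15.9 ± 1.24 CPM per kb) followed Per1 and did not differ beyond their spread. Sgk1 (11.5 ± 2.25 CPM per kb), Tsc22d3 (11.4 ± 1.60 CPM per kb) and Nr3c2 (10.8 ± 1.61 CPM per kb) formed the next group, again within each other's spread. Cdkn1a stood alone at 6.37 ± 1.53 CPM per kb. Hsd11b1 (3.02 ± 0.0990 CPM per kb) and Fkbp5 (2.90 ± 0.547 CPM per kb) lay together below it. The hormone-activating enzyme and the feedback co-chaperone were thus low in resting cortex, and the lipid droplet gene was near the lower end of detection. Its lowest value was 1.33 CPM in non-stroked WT mice, and its lowest count over all groups was 16.

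The receptor binds DNA as a dimer at inverted repeats, so the promoter windows of the genes were searched for the strict motif (AGAACA and TGTTC with 3 bases between), the looser motif (GNACA and TGTNC with 3 bases between), the clock factor motif CACGTG and the cyclic AMP response motif TGACGTCA on both strands. RefSeq windows on GRCm38.p6, from 250 bases before to 50 bases after a transcription start, were searched for 8 members, with 17 windows in all, 6 of them for Sgk1. The strict receptor motif was present in 1 of the 17 windows and in 0.0487% of all 32851 windows, and the looser motif, which overlaps it, in the same window and in 0.475% of all windows. That window belongs to Sgk1 (chr10:21993640-21993939, + strand) and is shown because Sgk1 was raised in every stroked group. The capitals mark the receptor motif, whose looser form begins at position -188 from the start site, read from both strands with a shift of 1 base. A match of letters is not a site of binding, and no match says only that the letters are not in these windows.
Sgk1: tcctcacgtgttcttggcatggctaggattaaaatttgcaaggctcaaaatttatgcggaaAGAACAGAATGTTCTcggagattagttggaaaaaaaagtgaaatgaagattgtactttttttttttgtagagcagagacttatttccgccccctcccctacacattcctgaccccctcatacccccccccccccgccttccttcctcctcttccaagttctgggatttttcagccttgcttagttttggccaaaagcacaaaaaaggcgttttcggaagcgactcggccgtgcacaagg
The windows of Fkbp5 (chr17:28486100-28486399, - strand) and Plin4 (chr17:56109733-56110032, - strand) are shown because these genes separated the stroked groups. The Fkbp5 window held CACGTG at position -169, in capitals, and the Plin4 window none of the 4 motifs, so it has no capitals. CACGTG was present in 3 of the 17 windows, those of Fkbp5, Sgk1 and Per1, and in 7.15% of all windows, and TGACGTCA in 0 of 17 and in 1.79% of all windows. The windows searched belong to the members other than Zbtb16 and Nr3c1.
Fkbp5: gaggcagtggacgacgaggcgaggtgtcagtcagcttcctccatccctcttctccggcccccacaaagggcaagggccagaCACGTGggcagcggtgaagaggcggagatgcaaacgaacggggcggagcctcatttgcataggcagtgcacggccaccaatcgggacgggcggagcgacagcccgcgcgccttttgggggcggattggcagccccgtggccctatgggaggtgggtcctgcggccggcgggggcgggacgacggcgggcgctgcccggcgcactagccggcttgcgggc
Plin4: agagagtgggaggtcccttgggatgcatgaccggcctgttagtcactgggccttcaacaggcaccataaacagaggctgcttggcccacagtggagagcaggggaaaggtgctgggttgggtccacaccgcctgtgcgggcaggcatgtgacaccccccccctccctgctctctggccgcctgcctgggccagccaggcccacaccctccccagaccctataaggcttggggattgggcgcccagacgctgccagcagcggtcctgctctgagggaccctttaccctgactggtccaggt

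In WT mice 4 of the 10 genes were higher after stroke and 1 was lower. The feedback co-chaperone Fkbp5, the anti-inflammatory Tsc22d3, the kinase Sgk1 and the lipid droplet gene Plin4 rose, and the receptor gene Nr3c1 fell. The 4 higher genes compare with 15.2% of all tested genes called higher, and the 1 lower gene with 11.6% called lower (26.9% in either direction). The median log2 fold change was 0.15 over the 10 members and 0.00 over all genes. At a minimum log2 fold change of 1, 2 members and 7.3% of genes were called. Without overlap between the groups, 4 members and 16.3% of genes lay higher and 1 member and 13.4% of genes lower.

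Fkbp5 (ENSMUSG00000024222, chr17:28399094-28517527) had 25.7, 23.1, 26.1 and 35.0 CPM in the 4 non-stroked WT mice and 64.0, 68.2, 79.7 and 80.5 CPM in the 4 stroked WT mice. The lowest stroked mouse thus lay well above the highest control, and the 2 TF mice were the 2 highest. The log2 fold change was 1.41 (SE 0.160, edgeR adjusted p = 6.17e-06), or 2.66-fold, and it was 1.27 within Imm2 (edgeR adjusted p = 4.76e-05).

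Tsc22d3 (ENSMUSG00000031431, chrX:140539528-140600659) had 42.0, 45.2, 54.0 and 56.6 CPM in non-stroked and 75.0, 91.7, 109 and 92.4 CPM in stroked WT mice. Sgk1 (ENSMUSG00000019970, chr10:21882184-21999903), whose window with the receptor motif is printed above, had 45.1, 53.9, 71.6 and 55.7 CPM in non-stroked and 104, 120, 134 and 90.4 CPM in stroked WT mice. Neither gene overlapped between the groups. The log2 fold changes were 0.90 for Tsc22d3 (SE 0.125, edgeR adjusted p = 3.35e-05) and 0.98 for Sgk1 (SE 0.153, edgeR adjusted p = 7.94e-05), close to a doubling, and 0.76 and 0.99 within Imm2.

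Plin4 (ENSMUSG00000002831, chr17:56100591-56109803) had 1.59, 1.33, 1.88 and 4.01 CPM in non-stroked WT mice. It had 13.6 and 14.7 CPM in the stroked Imm2 mice and 34.3 and 32.7 CPM in the stroked TF mice. Every stroked mouse lay above every control, and the stroked mice split by cohort. The log2 fold change was 3.43 (SE 0.400, edgeR adjusted p = 6.99e-06), or 10.8-fold, and it was 2.69 within Imm2 (edgeR adjusted p = 1.16e-04). The exons of Plin4 overlap those of Hdgfl2 on the other strand, and Hdgfl2 differed by -0.14 on the log2 scale (edgeR adjusted p = 0.306).

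Nr3c1 (ENSMUSG00000024431, chr18:39410545-39519421) had 135, 113, 123 and 119 CPM in non-stroked and 85.4, 93.1, 97.2 and 89.9 CPM in stroked WT mice. The groups did not overlap, and the receptor transcript fell by 0.42 on the log2 scale (SE 0.0973, edgeR adjusted p = 0.00278), with -0.45 within Imm2. The other 5 members were not called. Cdkn1a (ENSMUSG00000023067, chr17:29090976-29100727) had a log2 fold change of 0.39 (95% interval 0.05 to 0.72, edgeR adjusted p = 0.0809), and without the non-stroked mouse with 30.2 CPM it passed, at 0.56 (edgeR adjusted p = 0.0188). Nr3c2, Per1, Zbtb16 and Hsd11b1 had log2 fold changes between -0.19 and -0.09, with intervals that held 0. Within Imm2 these were 0.02 for Nr3c2, 0.18 for Per1, 0.21 for Zbtb16 and 0.00363 for Hsd11b1, of the other sign, and that of Cdkn1a was 0.23, and none was called.

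**Figure D1:**
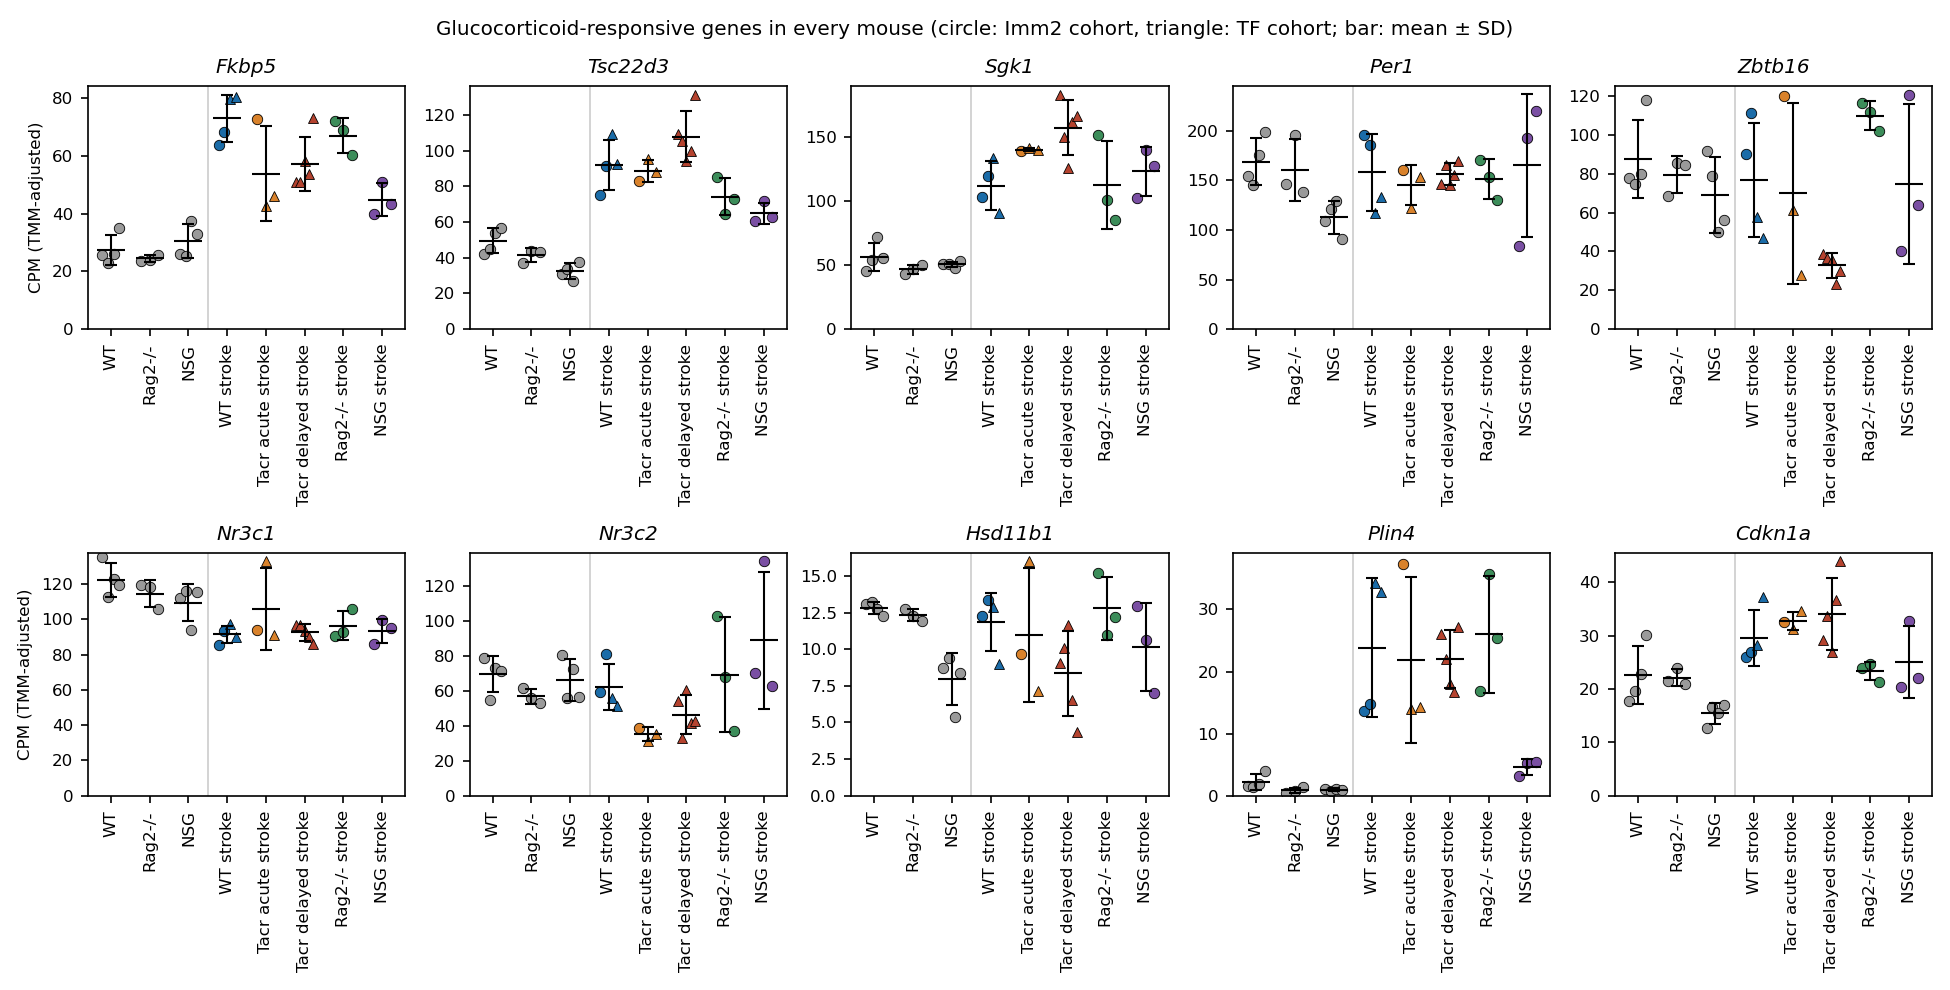
Level of each of the 10 genes (CPM, linear axis) in each of the 29 mice, with 1 panel per gene, 1 column per group, 1 point per mouse and a bar at the group mean. Fkbp5, Tsc22d3, Sgk1 and Plin4 lay higher in every stroked group than in the non-stroked mice of its strain, and Plin4 stayed between 3.09 and 5.45 CPM in stroked NSG mice against 13.6 CPM or more in the other stroked mice.

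In Rag2-/- mice, which lack T and B cells, the same 4 genes Fkbp5, Tsc22d3, Sgk1 and Plin4 were higher after stroke and none of the 10 was lower. This compares with 6.71% of all genes called higher (8.23% in either direction), and the median log2 fold change was 0.37 over the members and 0.00 over all genes. At a minimum log2 fold change of 1, 3 members and 4.33% of genes were called, and 5 members and 18.8% of genes lay higher without overlap. Plin4 rose most and had the smallest adjusted p of all 17031 genes. It had 0.453, 0.729 and 1.33 CPM in non-stroked and 16.8, 35.8 and 25.3 CPM in stroked Rag2-/- mice, a log2 fold change of 4.96 (SE 0.518, 31.2-fold, edgeR adjusted p = 1.08e-05).

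Fkbp5 had 23.7, 23.9 and 25.8 CPM in non-stroked and 72.1, 68.9 and 60.4 CPM in stroked Rag2-/- mice, with a log2 fold change of 1.46 (SE 0.185, edgeR adjusted p = 6.80e-05). Tsc22d3 had 36.9, 43.9 and 43.4 CPM against 85.0, 64.7 and 73.1 CPM (0.85, SE 0.144, edgeR adjusted p = 8.39e-04). Sgk1 had 43.4, 46.7 and 50.2 CPM against 151, 101 and 85.5 CPM (1.27, SE 0.177, edgeR adjusted p = 1.34e-04). In all 3 genes the groups were apart, and for Sgk1 1 stroked mouse stood well above the other 2. Zbtb16 was also higher in all 3 stroked mice, at 116, 112 and 102 CPM against 68.5, 85.7 and 84.8 CPM, but with the spread of all groups it did not pass (0.47, edgeR adjusted p = 0.532). With only the Rag2-/- groups in the fit it did (edgeR adjusted p = 0.0103). Nr3c1 differed by -0.25 (95% interval -0.48 to -0.02, edgeR adjusted p = 0.192).

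The stroke responses of Rag2-/- and WT mice were compared as a difference of log2 fold changes, and 0 members passed, as did 0% of all genes, with 1 member and 4.19% of genes at an unadjusted p below 0.05. That member was Plin4, at 1.54 (95% interval 0.25 to 2.83, edgeR adjusted p = 0.950). Between non-stroked Rag2-/- and WT mice the difference in Plin4 was -1.41 (edgeR adjusted p = 1), and between the stroked mice it was 0.13. Non-stroked Rag2-/- mice had 0.839 ± 0.451 CPM of Plin4 (SD, n = 3) and non-stroked WT mice 2.21 ± 1.23 CPM (SD, n = 4), while the stroked groups had 26.0 ± 9.49 (n = 3) and 23.8 ± 11.2 CPM (n = 4). Between stroked Rag2-/- and stroked WT mice 0 members were called (0.00587% of genes, with 1 member and 7.02% of genes at an unadjusted p below 0.05). The intervals of this difference were -0.47 to 0.23 for Fkbp5, -0.33 to 0.34 for Sgk1 and -0.64 to 0.90 for Plin4. Within Imm2, where 2 stroked WT mice remained, Plin4 differed by 0.89, with all 3 Rag2-/- mice above the 13.6 and 14.7 CPM of the WT mice, and Fkbp5 by 0.04 and Sgk1 by 0.03, each with an edgeR adjusted p of 1 (0 members and 0.0057% of genes called). Cdkn1a was lower in every stroked Rag2-/- mouse without passing the test (3.19% of genes lay so). In the non-stroked state 0 members differed between Rag2-/- and WT mice (0.00587% of genes), with 1 member, Plin4, and 2.05% of genes at an unadjusted p below 0.05.

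In NSG mice 5 members were higher after stroke and none was lower, against 13% of all genes called higher and 8.89% lower (21.9% in either direction). Tsc22d3 and Sgk1 rose by a factor near that in the other strains, Fkbp5 and Plin4 rose from similar or lower baselines to lower levels, and Cdkn1a rose as well. The median log2 fold change was 0.55 over the members and 0.03 over all genes. At a minimum log2 fold change of 1, 3 members and 5.48% of genes were called, and 5 members and 13.6% of genes lay higher without overlap.

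Tsc22d3 had 31.1, 33.8, 27.1 and 37.8 CPM in non-stroked and 60.7, 71.6 and 62.8 CPM in stroked NSG mice, a log2 fold change of 1.0015 (SE 0.133, edgeR adjusted p = 3.28e-05). Sgk1 had 50.7, 51.0, 48.1 and 53.03 CPM against 103, 140 and 127 CPM, a log2 fold change of 1.28 (SE 0.162, edgeR adjusted p = 1.92e-05). The groups were apart for both genes.

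Fkbp5 had 26.2, 25.5, 37.6 and 32.9 CPM in non-stroked and 39.9, 51.1 and 43.5 CPM in stroked NSG mice. The lowest stroked mouse was just above the highest control, and the log2 fold change was 0.55 (SE 0.169, edgeR adjusted p = 0.0212). With only the NSG groups in the fit the log2 fold change was 0.56 but not called (edgeR adjusted p = 0.0969). It was 0.44 without the stroked mouse with 51.1 CPM (0.0905), and 0.49 and 0.48 without the non-stroked mice with 26.2 or 25.5 CPM (0.0628 and 0.0682). Plin4 had 1.11, 0.813, 1.13 and 0.835 CPM against 3.09, 5.24 and 5.45 CPM, a log2 fold change of 2.23 (SE 0.450, 4.70-fold, edgeR adjusted p = 0.00130), and stroked NSG mice stayed close to the non-stroked WT mouse with 4.01 CPM.

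Cdkn1a had 12.7, 16.6, 15.5 and 17.0 CPM in non-stroked and 20.4, 32.8 and 22.03 CPM in stroked NSG mice. The mouse with 32.8 CPM was also the highest of its group for Fkbp5, Tsc22d3, Sgk1, Nr3c2, Zbtb16 and Nr3c1, and it had the highest sums of myeloid (954 CPM) and fibroblast markers (1343 CPM) among stroked NSG mice, whose part in the result was not tested. The log2 fold change of Cdkn1a was 0.70 (SE 0.177, edgeR adjusted p = 0.00685), and without that mouse it was 0.45 and no longer called (edgeR adjusted p = 0.0705). The call was also lost with only the NSG groups in the fit (0.71, edgeR adjusted p = 0.0769) and with Ddx3y as a covariate (0.57, edgeR adjusted p = 0.0520). Per1 (ENSMUSG00000020893, chr11:69095217-69109960) had 109, 121, 129 and 91.1 CPM in non-stroked and 83.4, 193 and 219 CPM in stroked NSG mice, and its log2 fold change of 0.55 did not pass (edgeR adjusted p = 0.0693). Without the stroked mouse with 83.4 CPM it was 0.87 (edgeR adjusted p = 0.00242).

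Stroked NSG mice were lower than stroked WT mice in 3 members, against 6.27% of genes called lower (12.9% in either direction). Plin4 differed by -2.37 on the log2 scale (SE 0.418, edgeR adjusted p = 3.44e-04), Fkbp5 by -0.70 (SE 0.172, edgeR adjusted p = 0.00755) and Tsc22d3 by -0.50 (SE 0.135, edgeR adjusted p = 0.0147), and in none did the groups overlap, against 6.86% of genes lower without overlap. Within Imm2, where 2 stroked WT mice remained, 1 member was called (4.68% of genes): Plin4 differed by -1.63 (edgeR adjusted p = 0.0183), Fkbp5 by -0.56 (edgeR adjusted p = 0.0697) and Tsc22d3 by -0.37 (edgeR adjusted p = 0.231). Sgk1 differed by 0.14 (95% interval -0.20 to 0.47).

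Tsc22d3 was lower without stroke too. Non-stroked NSG mice were lower than non-stroked WT mice in Tsc22d3 by -0.61 (SE 0.125, edgeR adjusted p = 0.00168) and in Cdkn1a by -0.55 (SE 0.166, edgeR adjusted p = 0.0327), 2 members against 4.92% of genes called lower (9.76% in either direction). Cdkn1a lost this call without the non-stroked WT mouse with 30.2 CPM (edgeR adjusted p = 0.188) or 22.8 CPM (0.0681), or the non-stroked NSG mouse with 12.7 CPM (0.111) or 15.5 CPM (0.0726). Per1, Hsd11b1 and Plin4 were also without overlap, so that 5 of the 10 lay lower in every NSG than in every WT mouse, against 11.9% of genes. Hsd11b1 (ENSMUSG00000016194, chr1:193221634-193264075) had 8.72, 9.39, 5.39 and 8.35 CPM in non-stroked NSG and 13.1, 13.2, 12.7 and 12.3 CPM in non-stroked WT mice (-0.69, edgeR adjusted p = 0.0760). Between non-stroked NSG and Rag2-/- mice 0 members were called against 6.33% of genes, with 4 members and 18.2% of genes at an unadjusted p below 0.05, and 3 members and 12.1% of genes lower without overlap.

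As a difference of responses between NSG and WT mice, 0 members passed against 0.0294% of genes, with 2 members and 12.7% of genes at an unadjusted p below 0.05. These were Fkbp5, at -0.86 (95% interval -1.34 to -0.38, edgeR adjusted p = 0.139), and Per1, at 0.65 (edgeR adjusted p = 0.371). Plin4 differed by -1.19 (95% interval -2.43 to 0.04, edgeR adjusted p = 0.406). The intervals were -0.27 to 0.48 for Tsc22d3 and -0.16 to 0.75 for Sgk1.

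**Figure D2:**
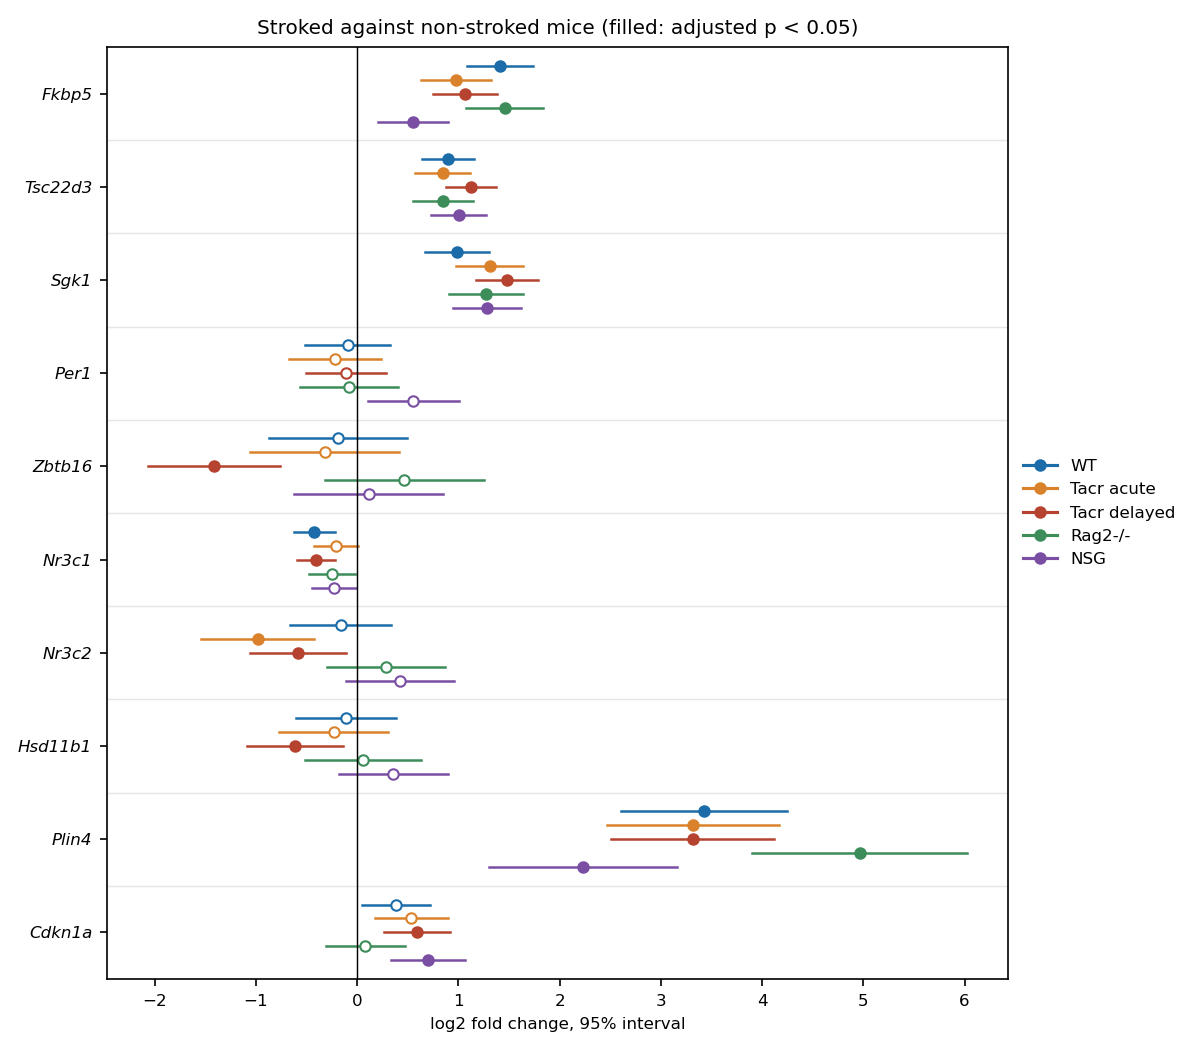
Log2 fold change of each gene in 5 stroked groups against non-stroked mice of the same strain, as points with 95% intervals, filled where the edgeR adjusted p was below 0.05. Fkbp5, Tsc22d3, Sgk1 and Plin4 are filled in all 5 groups, with Plin4 running from 2.23 in NSG to 4.96 in Rag2-/- mice, and the 3 WT groups share their controls.

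**Figure D3:**
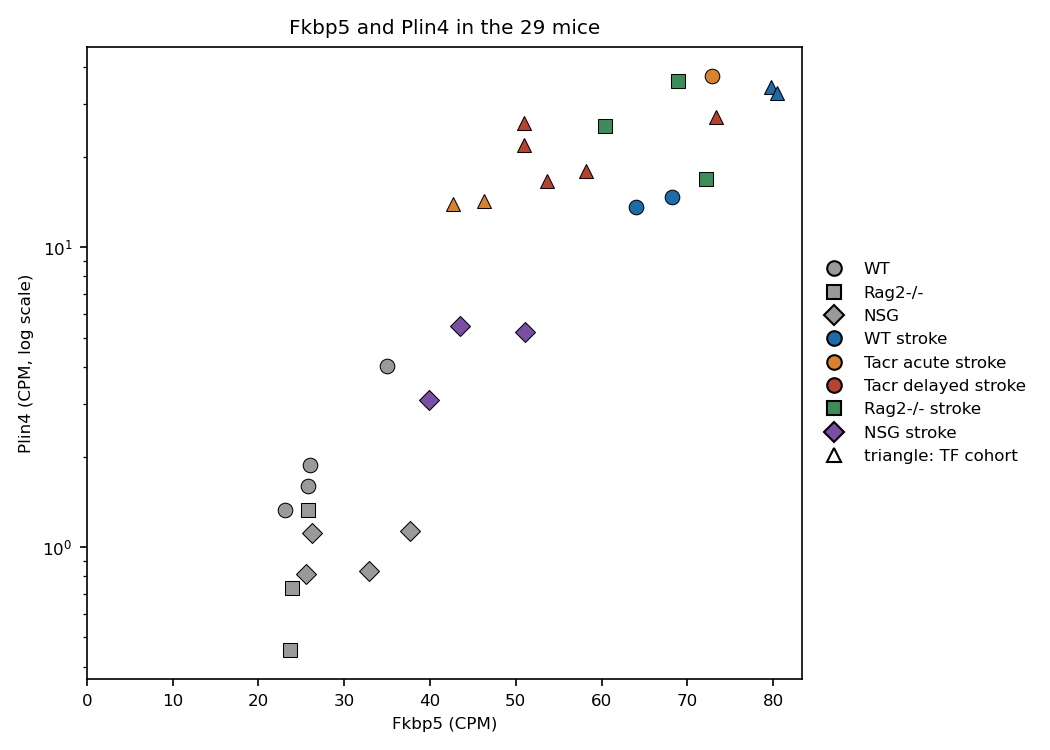
Fkbp5 (CPM, linear axis) against Plin4 (CPM, log axis) in 29 mice, 1 point per mouse, coloured by group. For Fkbp5, stroked NSG mice (39.9 to 51.1 CPM) lie above all non-stroked mice (at most 37.6 CPM). They overlap both tacrolimus groups there (from 42.7 CPM in acute and 51.0 CPM in delayed mice). For Plin4, stroked NSG mice (3.09 to 5.45 CPM) lie below all other stroked mice, and the highest non-stroked WT mouse (4.01 CPM) lies within their range.

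After acute tacrolimus, stroked WT mice had higher Fkbp5, Tsc22d3, Sgk1 and Plin4 than non-stroked WT mice, and lower Nr3c2, 4 members against 6.18% of genes called higher and 1 against 2.36% called lower (8.54% in either direction). Sgk1 had 139, 141 and 140 CPM in the 3 mice, the tightest of its groups, with a log2 fold change of 1.31 (SE 0.162, edgeR adjusted p = 1.08e-04). Fkbp5 had 72.8 CPM in the Imm2 mouse and 42.7 and 46.3 CPM in the TF mice (0.98, SE 0.169, edgeR adjusted p = 0.00240). Plin4 split the same way, with 37.3 CPM in the Imm2 mouse and 13.9 and 14.3 CPM in the TF mice (3.31, SE 0.412, edgeR adjusted p = 1.08e-04, and 2.65, still called, without the Imm2 mouse). Tsc22d3 was even, at 83.1, 95.4 and 87.8 CPM (0.84, SE 0.133, edgeR adjusted p = 9.84e-04). All 4 genes lay above every non-stroked WT mouse in each acute mouse. With Cdkn1a, 5 members lay higher without overlap, against 10.4% of genes, and Nr3c2 lower, against 9.2%. At a minimum log2 fold change of 1, 2 members and 2.58% of genes were called. With only the acute and non-stroked WT groups in the fit, Fkbp5 had the same log2 fold change of 0.98 but was not called (edgeR adjusted p = 0.0925), in a fit that called 4 members and 0.22% of genes.

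The mineralocorticoid receptor gene Nr3c2 (ENSMUSG00000031618, chr8:76899442-77245012) had 39.0, 31.4 and 35.4 CPM in acute mice and 78.9, 54.8, 73.4 and 71.5 CPM in non-stroked WT mice. The groups were apart, with a log2 fold change of -0.98 (SE 0.271, edgeR adjusted p = 0.0292). The difference stayed near this size under the alternatives while its call was lost in several: it was -0.77 with cohort as a covariate (edgeR adjusted p = 0.385), -1.10 with Ddx3y as a covariate (0.0581), -0.83 within Imm2, where the acute arm is 1 mouse (1), and -0.99 to -0.91 without each of 5 single mice (0.0552 to 0.190). Against untreated stroked WT mice, at 59.5, 81.2, 56.2 and 51.6 CPM, the difference was -0.82 (edgeR adjusted p = 0.311).

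The markers of cells that enter the lesion separated the 3 acute mice. Summed myeloid markers were 83.4, 60.0 and 598 CPM, against 44.2 to 50.7 CPM in non-stroked and 255 to 679 CPM in untreated stroked WT mice, and 6 of 7 markers were called higher than in controls. Summed fibroblast and meningeal markers were 122, 92.1 and 442 CPM, against 89.1 to 102 CPM in non-stroked WT mice, with 2 of 7 called higher. The mouse with 83.4 CPM of myeloid markers had the highest Plin4 and Fkbp5 of the 3, and the mouse with 60.0 CPM the highest Tsc22d3 and Sgk1. The part of these cells in the results was not tested.

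After delayed tacrolimus 9 of the 10 members differed from non-stroked WT mice, but so did 55.2% of all genes, 27.6% in each direction, so the count itself says little about these genes. Sgk1 had 183, 150, 126, 162 and 167 CPM, the highest mean of the 8 groups (157 ± 21.2 CPM, SD, n = 5), with a log2 fold change of 1.48 (SE 0.149, edgeR adjusted p = 2.57e-07). Tsc22d3 had 109, 105, 94.1, 99.6 and 131 CPM (1.13, SE 0.120, edgeR adjusted p = 3.91e-07). Fkbp5 had 51.0, 51.0, 58.2, 53.6 and 73.3 CPM (1.06, SE 0.153, edgeR adjusted p = 5.78e-06). All 3 genes were above every control, as was Plin4, at 26.0, 21.99, 18.0, 16.7 and 27.2 CPM (3.31, SE 0.391, edgeR adjusted p = 7.52e-07). Cdkn1a was higher (0.59) and Nr3c1 (-0.40), Nr3c2 (-0.59), Hsd11b1 (-0.61) and Zbtb16 (-1.42) were lower, with edgeR adjusted p between 6.35e-04 and 0.0347. Without overlap, 4 members and 26.5% of genes lay higher and 3 members and 27.4% of genes lower, and at a minimum log2 fold change of 1, 5 members and 15.5% of genes were called.

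Zbtb16 (ENSMUSG00000066687, chr9:48654297-48836222) split by cohort among WT mice. It had 38.7, 36.6, 35.7, 23.2 and 29.8 CPM in delayed mice, all TF, and 77.8, 75.0, 79.9 and 118 CPM in non-stroked WT mice, all Imm2. Among stroked WT mice it had 90.3 and 111 CPM in Imm2 and 58.0 and 47.2 CPM in TF, and among acute mice 120 CPM in Imm2 and 61.4 and 28.0 CPM in TF. Every TF mouse lay below every non-stroked WT mouse, whatever its treatment. With cohort as a covariate the difference from non-stroked WT mice was -0.28 (edgeR adjusted p = 0.709), and 5 of the 9 members stayed called: Fkbp5, Tsc22d3, Sgk1, Nr3c1 and Plin4, against 9% of genes. The calls of the other 4 were lost, at -0.57 for Hsd11b1 (edgeR adjusted p = 0.346), near its size without the covariate, and at 0.40 for Cdkn1a (0.298), -0.27 for Nr3c2 (0.697) and the value above for Zbtb16. Delayed mice also had the lowest sums of neuronal markers (6649 to 8138 CPM against 11800 to 13410 CPM in non-stroked WT mice, 8 of 10 markers called lower) and the highest median of the myeloid sums (758 CPM, from 508 to 1251 CPM, 7 of 7 markers called higher), whose part in the result was not tested.

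Against untreated stroked WT mice, 0 members passed in either tacrolimus group, as did 0% of all genes. At an unadjusted p below 0.05 there were 2 members and 12.7% of genes for acute, and 4 members and 20.3% of genes for delayed tacrolimus. Fkbp5 had a negative difference in both, -0.44 in acute (95% interval -0.79 to -0.08, edgeR adjusted p = 0.315) and -0.35 in delayed mice (95% interval -0.65 to -0.04, edgeR adjusted p = 0.205). Over all mice, Fkbp5 overlapped between the groups in both comparisons. Within TF, 2 untreated mice had 79.7 and 80.5 CPM of Fkbp5. The differences there were -0.87 in acute (edgeR adjusted p = 0.443) and -0.48 in delayed mice (edgeR adjusted p = 0.9998). The single acute mouse of Imm2 (72.8 CPM) lay above both untreated Imm2 mice. Sgk1 went the other way, at 0.32 in acute (edgeR adjusted p = 0.406) and 0.49 in delayed mice (95% interval 0.20 to 0.79, edgeR adjusted p = 0.150). DESeq2 called Sgk1 in delayed mice (adjusted p = 0.0434). Without overlap, Sgk1 lay higher (2.71% of genes) and Nr3c2 lower (3.58%) in acute mice, and Zbtb16 lower in delayed mice (2.18%). Tsc22d3 and Plin4 differed by -0.05 and -0.11 in acute and by 0.23 and -0.11 in delayed mice. These comparisons share the untreated mice.

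Delayed and acute mice differed in 1 member, Zbtb16, which was lower, against 9.96% of genes called lower (20.3% in either direction), and 0 members lay apart without overlap (8.81% of genes higher, 9% lower). At a minimum log2 fold change of 1 it was the 1 member called, with 5.75% of genes. The log2 difference in Zbtb16 was -1.09 (SE 0.339, edgeR adjusted p = 0.0264). Within TF the difference was -0.41 (edgeR adjusted p = 0.350) and 0 members and 0% of all genes were called, and without the acute Imm2 mouse it was -0.46 (edgeR adjusted p = 0.452), again with 0% of genes called.

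**Figure D4:**
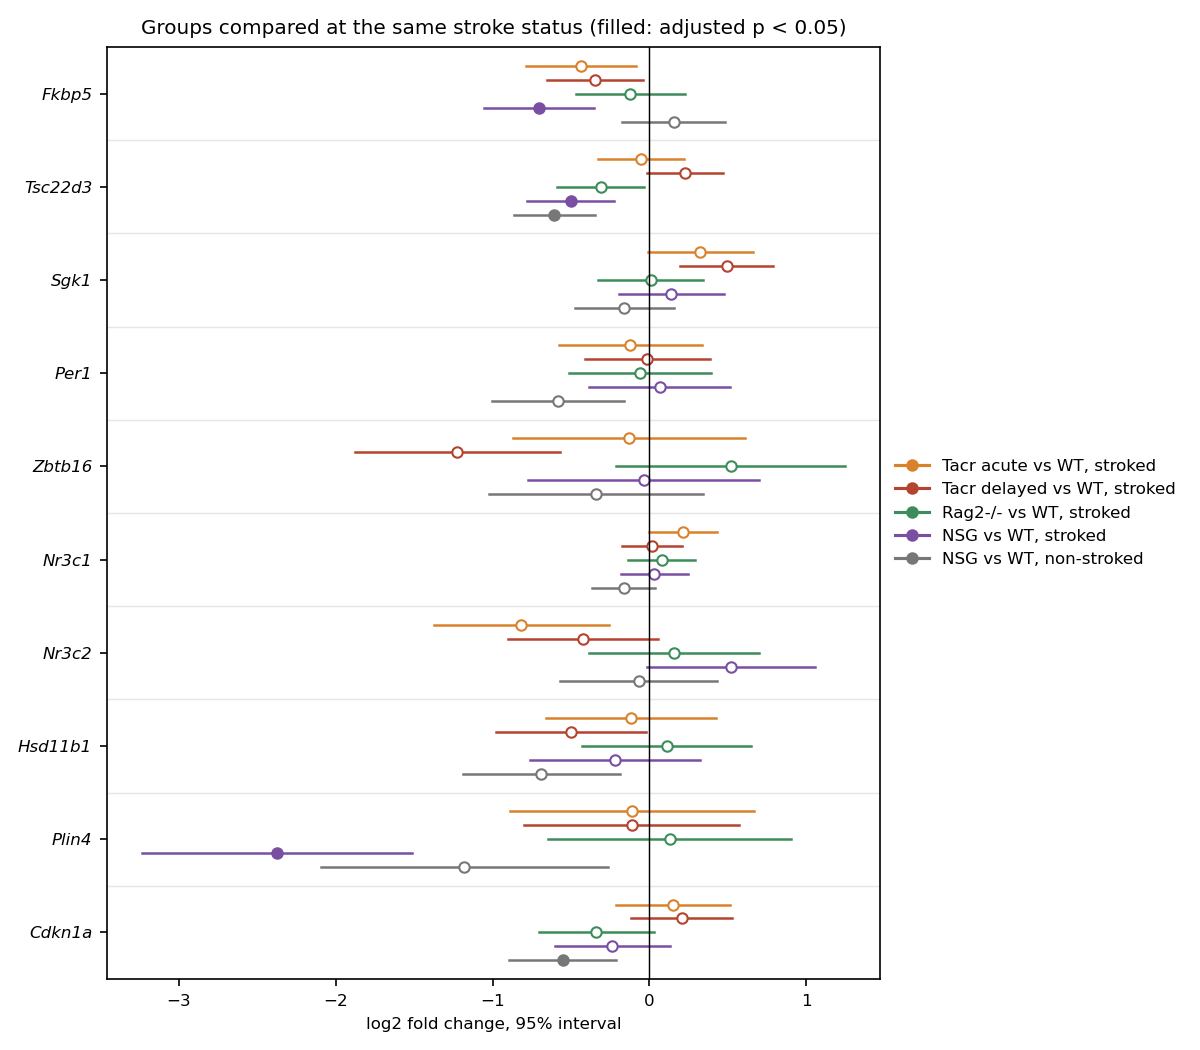
Log2 differences between groups of the same stroke status for each gene, as points with 95% intervals, filled where the edgeR adjusted p was below 0.05. Plin4 (-2.37), Fkbp5 (-0.70) and Tsc22d3 (-0.50) are filled in stroked NSG against stroked WT mice, and no gene is filled in either tacrolimus group against untreated stroked mice.

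The 25 other genes listed as induced by glucocorticoids were called higher far more often than lower in each stroked group. This list and those that follow were chosen with earlier results of these data known, so their counts are descriptions. Gjb6, Sult1a1, Arrdc2 and Nfkbia of this list are also among the genes closest to raised members in these mice. In WT mice 16 of 25 were higher and 1 was lower after stroke, against 15.2% of all genes called higher and 11.6% lower, and their median log2 fold change was 0.68. In Rag2-/- mice 12 were higher and 1 lower (median 0.60), against 6.71% and 1.53% of all genes. In NSG mice 15 were higher and 0 lower (0.83), against 13% and 8.89%. After acute tacrolimus 12 were higher and 0 lower (0.54), against 6.18% and 2.36%, and after delayed tacrolimus 19 and 1 (0.78), against 27.6% each way. The median of all genes was between 0.00 and 0.03, and the counts of the lists that follow are to be read against the same shares. Against untreated stroked mice neither tacrolimus group had a called gene among the 25. The metallothionein gene Mt2, which binds zinc, rose by 2.20 in WT, 1.65 in Rag2-/-, 1.76 in acute and 2.65 in delayed mice, and the sulfotransferase gene Sult1a1 by 1.54 in WT and 1.58 in Rag2-/- mice. In NSG mice Nfkbia, the inhibitor of NF-kappaB, rose by 1.70 and the arrestin-related gene Arrdc2 by 1.40. Several of these genes, Nfkbia among them, are also induced by inflammatory signals. The exception was Dusp1, a phosphatase gene that neuronal activity also induces, which fell by 1.18 in WT and by 1.39 in Rag2-/- mice and had a log2 fold change of 0.83 in NSG mice that did not pass (edgeR adjusted p = 0.0615). Stroked NSG mice had 3 of the 25 higher and 6 lower than stroked WT mice, against 6.6% and 6.27% of all genes. Cebpd differed by 1.42 and Map3k6 by -1.30.

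**Figure D5:**
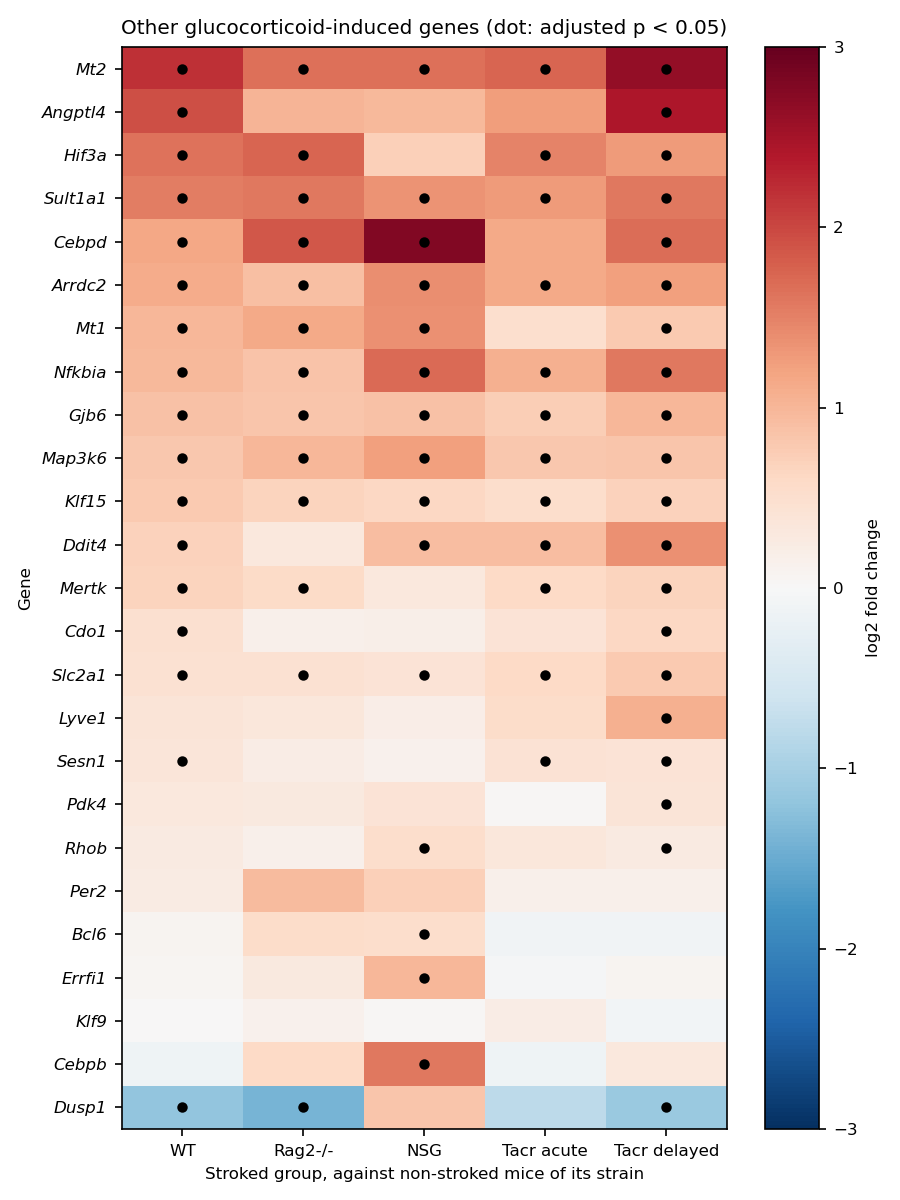
Log2 fold change (colour) of 25 other glucocorticoid-induced genes, 1 row per gene, in 5 stroked groups against non-stroked mice of the same strain, with a dot where the edgeR adjusted p was below 0.05. Mt2 is red and dotted in all 5 columns, and Dusp1 is blue in WT (-1.18) and Rag2-/- mice (-1.39) but not in NSG mice (0.83).

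The genes that hold and tune the receptor showed no such rise in WT mice. Of 15 receptor chaperones and cofactors, 0 were higher and 7 lower in WT mice (median -0.33), against 11.6% of all genes lower, with the co-chaperone gene Stip1 at -0.58 and the chaperone gene Hsp90aa1 at -0.39, and 0 were higher and 10 lower after delayed tacrolimus (median -0.41), against 27.6% of all genes lower. None was called in Rag2-/- mice, 3 were higher and 2 lower in NSG mice, and 2 were lower after acute tacrolimus. Of 16 genes of corticosteroid supply, 11 could be tested. In WT mice 0 were higher and 2 lower, the corticotropin-releasing hormone gene Crh (-0.66) and its receptor gene Crhr1 (-0.44). Crhr1 was the 1 gene called in Rag2-/- mice (-0.79), Pomc, which encodes the precursor of corticotropin, the 1 called in NSG mice (2.86), and 0 were called after acute tacrolimus. After delayed tacrolimus 5 were higher and 2 lower, against 27.6% of all genes each way.

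The lists that belong to single members varied more. Around Plin4, 5 of 9 tested lipid droplet genes were higher and none lower in WT mice (median 0.67), against 15.2% of all genes higher. In Rag2-/- mice 3 were higher (6.71% of all genes), in NSG 5 (13%), in acute 5 (6.18%) and in delayed mice 7 (27.6%), led by Plin3 (0.95) and the triglyceride lipase gene Pnpla2 (0.68) in WT mice. Of 6 adipocyte markers only Fabp4 passed the filter on low counts, while Adipoq had at most 3 and Plin1 at most 11 counts in any mouse and Lep had 0 in all. Around Per1, 5 of 18 clock genes were higher and 3 lower in WT mice, with the activator gene Arntl at -0.68, and the counts were 2 and 1 in Rag2-/-, 3 and 3 in NSG, 1 and 0 in acute and 4 and 6 in delayed mice, with medians between -0.15 and 0.09 (all genes 15.2% higher and 11.6% lower in WT and 27.6% each way in delayed mice). Around Cdkn1a, 4 of 20 p53 targets were higher, Fas (2.22) among them, and 3 lower in WT mice, with 3 and 0 in Rag2-/-, 4 and 0 in NSG, 2 and 0 in acute and 8 and 5 in delayed mice, against the same shares of all genes. The time of day of tissue collection was not given in the sources used here.

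Immediate early genes of neuronal activity, transcription factors for the most part, separated NSG from WT mice. Of 14 such genes 0 were higher and 12 lower after stroke in WT mice (median -1.24), against 11.6% of all genes lower. In Rag2-/- mice 8 were lower (1.53% of all genes), in acute 3 (2.36%) and in delayed mice 12 (27.6%), and in NSG mice 1 was higher and 0 lower (median 0.66). Non-stroked NSG mice had 9 of the 14 lower than non-stroked WT mice (median -0.99), against 4.92% of all genes, with Egr1 at -1.38. The difference in stroke response between NSG and WT mice was called for 2 of them, Egr1 (1.91, edgeR adjusted p = 0.0266) and Nr4a1 (2.30, edgeR adjusted p = 0.0352).

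Across all 29 mice the genes whose log2 CPM was most like that of the raised members were other raised genes, and since these correlations follow the split between stroked and non-stroked mice, the values within each are given too. For Fkbp5 the closest gene was Plin4 (r = 0.925 over 29 mice, 0.729 over the 18 stroked and 0.405 over the 11 non-stroked mice). For Sgk1 it was Arrdc2 (0.947, 0.736 and 0.310), and for Tsc22d3 and Plin4 it was Smim3 (0.941, 0.681 and 0.853 for Tsc22d3, and 0.938, 0.762 and 0.718 for Plin4). Among stroked mice Fkbp5 and Sgk1, which both rose, did not vary together (r = -0.166, n = 18), and Tsc22d3 was closer to Sgk1 (0.617), Plin4 (0.564) and Cdkn1a (0.719) than to Fkbp5 (0.333). Nr3c2 followed Shisa6 closely within both sets (0.973, 0.981 and 0.903), Zbtb16 followed Arhgap39 (0.922, 0.918 and 0.915), Nr3c1 followed Rb1cc1 (0.927, 0.860 and 0.838), Hsd11b1 followed Kcns3 (0.867, 0.849 and 0.959) and Cdkn1a followed Prss23 (0.903, 0.881 and 0.724). The mice, also the stroked mice alone, differ in group, cohort and depth, which these correlations can follow, so they are descriptions.

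Marker genes of other cells were also called higher after stroke in WT, Rag2-/- and NSG mice. In acute mice the myeloid sums were 60.0, 83.4 and 598 CPM, against 44.2 to 50.7 CPM in non-stroked WT mice. Fkbp5, Tsc22d3, Sgk1 and Plin4 were above every non-stroked WT mouse in each acute mouse. In WT mice 7 of 7 myeloid, 5 of 7 microglial, 5 of 7 fibroblast and meningeal and 6 of 8 astrocyte markers were higher and 5 of 10 neuronal markers lower after stroke. In Rag2-/- mice these counts were 6, 3, 5 and 4 higher and 0 lower, and in NSG mice 7, 4, 6 and 4 higher and 1 lower. Stroked NSG mice had myeloid sums of 346 to 954 CPM and fibroblast sums of 238 to 1343 CPM, and stroked WT mice 255 to 679 and 327 to 697 CPM. Of 5 tested T and B cell markers 3 were higher in WT and 4 in delayed mice, and 0 in Rag2-/-, NSG and acute mice. Sums over all listed T and B cell markers did not separate the strains, so these calls do not measure lymphocytes. In non-stroked mice they were 4.11 to 10.45 CPM in WT, 4.56 to 18.4 in Rag2-/- and 4.48 to 36.3 in NSG mice. After stroke they were 8.56 to 23.2, 2.79 to 18.0 and 2.30 to 27.2 CPM. Of 7 endothelial markers 1 was higher in each group, with 3 lower in WT and 1 in delayed mice, and of 6 mural markers between 0 and 4 were higher. Oligodendrocyte (8), choroid plexus (7) and erythrocyte (5) markers had no calls in WT, Rag2-/-, NSG or acute mice, and in delayed mice 2 oligodendrocyte markers were higher and 2 lower and 1 choroid plexus marker was higher. The part of these cells in the other results was not tested.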

How the data were processed

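RNA was sequenced from the brain tissue of 29 mice in 8 groups, and the authors deposited 1 table of raw read counts per gene for each mouse. The aligner, the counter, the genome build and whether counting used strand are not given in the sources used here, and the library kit keeps strand. If strand was not used in counting, reads of Plin4 and of the overlapping Hdgfl2 cannot be told apart. The exons of Cdkn1a also overlap those of another counted gene, AC167363.2, whose part in its counts was not tested. Symbols were found for 25635 of 25746 gene identifiers, 111 had none, and positions are those of GENCODE M21 on GRCm38. The 17031 genes kept by the edgeR filter on low counts were scaled by TMM and fitted in 1 quasi-likelihood model of the 8 groups (edgeR 4.0.16, R 4.3.3), for 13 comparisons. The comparisons of stroked NSG and stroked Rag2-/- mice with stroked WT mice were added after seeing the data. Benjamini-Hochberg adjustment was over all genes, at a threshold of 0.05, and intervals are at 95%. Total counts of 17789044 to 43403413 leave the lowest member, Plin4, with 16 to 1534 counts per mouse, the others more except Hsd11b1 (88 to 530). Alternatives were another normalization, other filters, DESeq2 1.42.0, a minimum log2 fold change of 1, cohort or Ddx3y as a covariate, 1 cohort only, only the groups compared, a replicate block and each mouse left out. Likeness between genes is Pearson's r of log2 CPM with a prior count of 2. On simulated counts for stroke in WT mice, with 16762 genes, 197 of 200 changed genes were recovered with 6 false calls. These changed genes were drawn from those with higher counts and had a median absolute log2 fold change of 2.00. No difference between cohorts was simulated, so recovery of smaller changes, or of changes across cohorts, was not tested. The members and the 19 gene lists (7 of genes related to the members and 12 of cell markers) were chosen with earlier results of these data known. All 10 members are given, and of each list at most 2 called genes per direction and comparison, those with the smallest p. Dusp1 in NSG mice was named after its value was seen. Sample groups came from the labels, and 2 animal numbers that differ between title and file were taken from the title.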

Additional observations from a re-analysis of the deposited data

Results flagged for a closer look

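Zbtb16 had 117.9 CPM in 1 of the 4 non-stroked WT mice and 75.0 to 79.9 CPM in the other 3. The gap to the nearest mouse was 0.885 of the range of the group, above the critical value of 0.829 for 4 samples. Of 40 sets of 4 or more mice tested over the 10 genes 1 was set apart in this way, and chance does so for about 1 in 20.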

How the results depend on the processing

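Of the results recomputed under each alternative none reversed a call. Shares of all genes called stand in brackets after each count of members. The number of members called after stroke in WT mice (5, 26.9%) was 2 at a minimum log2 fold change of 1 (7.3%). In NSG mice (5, 21.9%) it was 3 at that minimum (5.48%), 3 with only the groups compared (4.9%), and 3 to 6 with single mice left out (23.8% and 10.9%). After acute tacrolimus against non-stroked WT mice (5, 8.54%) it was 2 at that minimum (2.58%) and 3 within Imm2 (0.24%), where the acute arm is 1 mouse, assumed to vary like the other groups. After delayed tacrolimus (9, 55.2%) it was 5 with cohort as a covariate (9%) and 5 at that minimum (15.5%). For delayed tacrolimus against untreated stroke (0, 0%) DESeq2 gave 1 (1.17%), and leaving out single mice gave 0 to 2 (2.8%), the highest without a stroked WT mouse of TF. For delayed against acute tacrolimus (1, 20.3%) it was 0 with cohort (9.29%) or Ddx3y (14%) as a covariate, 0 with only the groups compared (0%), 0 within TF (0%), and 0 to 2 with single mice left out (0 without the acute mice with 120 or 61.4 CPM of Zbtb16, 0% each, or the delayed mice with 23.2 or 29.8 CPM, 16% and 8.74%, and 2 without the acute mouse with 28.0 CPM, 33.6%). For non-stroked NSG against WT mice (2, 9.76%) it was 0 at the minimum (3.36%), 5 with only the groups compared (15.8%), 4 with DESeq2 (12%), and 1 to 2 with single mice left out. For stroked NSG against stroked WT mice (3, 12.9%) it was 1 within Imm2 (4.68%), and 1 to 3 with single mice left out, the lowest without the stroked NSG mouse with 39.9 CPM of Fkbp5 (7.2%). With only the groups compared, non-stroked NSG against Rag2-/- mice (0, 6.33%) gave 1 (9.29%). With a replicate block, non-stroked NSG against Rag2-/- mice gave 3 (7.61%), as did the same mice without the block (8.88%), non-stroked Rag2-/- against WT mice (0, 0.00587%) gave 1 (0.228%), and non-stroked NSG against WT mice 2 (5.41%). Deviations of same-numbered mice correlated between -0.258 and 0.108, so the numbers were not taken to pair them. The causes of these changes were not tested. Groups of 3 to 5 mice, and the low counts of Plin4 in non-stroked mice, limit the precision.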
